A study of Mus musculus with 8 samples.

Results

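Transcripts of 9 genes of the p53 checkpoint and of the mitochondrial route to apoptosis were examined in mouse male germ cells that lack MGAT2, to ask whether these cells carry a transcript pattern of cell death at 15 days after birth. The genes were chosen by name: *Trp53*, its regulator *Mdm2*, its target *Cdkn1a*, the death effector *Bax*, the survival genes *Bcl2* and *Bcl2l1*, and the BH3-only genes *Bcl2l11*, *Bbc3* and *Pmaip1*. They make up 9 of the 55357 genes in the deposited table, and all 9 were among the 20187 genes that reached a TPM of 1 (transcripts scaled to the same total in each library and corrected for length) in at least 1 sample and were tested. MGAT2 is the Golgi N-acetylglucosaminyltransferase that starts the second branch of complex N-glycans. Germ cells were isolated from testes of C57BL/6 males at 15 days. The 4 control mice were *Mgat2*[F/F], with both alleles floxed and no Cre. The 4 conditional knockout (cKO) mice were *Mgat2*[F/F]:*Stra8*-iCre, with the same floxed alleles and the Cre transgene. *Stra8*-iCre acts in spermatogonia and their descendants, so *Mgat2* is left intact in any somatic cell that remains in the preparation. The germ cells of each mouse gave 1 poly(A) RNA library without strand information.

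The protein p53, made from *Trp53*, is a transcription factor that rises in activity after DNA damage or other stress. It switches on *Cdkn1a*, which stops the cell cycle, and *Bax*, *Bbc3* and *Pmaip1*, which promote apoptosis. It also switches on *Mdm2*, whose product marks p53 for degradation and so closes a feedback loop. Much of the control of p53 itself is on the protein, so its transcript level can stay steady while its activity changes. In the BCL2 family, survival proteins such as BCL2 and BCL-xL (from *Bcl2l1*) hold the effectors BAX and BAK in check. BH3-only proteins such as BIM (from *Bcl2l11*), PUMA (from *Bbc3*) and NOXA (from *Pmaip1*) bind the survival proteins or the effectors and tip the balance towards release of cytochrome c. Germ cell apoptosis is a normal part of the first wave of spermatogenesis, and mice without *Bax* accumulate germ cells that would otherwise die.

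Promoter sequences from RefSeq are shown for 4 of the genes, because they hold letters of the binding motifs of p53 and of FOXO factors, the AKT-controlled activators of *Bcl2l11*. Each window runs from 250 bases before to 50 bases after the start, was located by exact match in GRCm39, and is written 5′ to 3′ on the strand of the gene. Capitals mark a p53 half-site, the 10-base unit whose pairs p53 binds, or the FOXO-type motif TGTTTAC, each searched on both strands. RefSeq gave 14 windows for 8 of the genes.
Cdkn1a promoter, chr17:29309703-29310002, forward strand: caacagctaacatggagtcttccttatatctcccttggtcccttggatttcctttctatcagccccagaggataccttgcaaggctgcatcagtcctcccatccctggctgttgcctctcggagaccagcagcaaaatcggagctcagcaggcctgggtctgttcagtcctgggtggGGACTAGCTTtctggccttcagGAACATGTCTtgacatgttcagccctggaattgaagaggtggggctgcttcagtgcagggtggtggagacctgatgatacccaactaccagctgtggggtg
Bax promoter, chr7:45116273-45116572, reverse strand: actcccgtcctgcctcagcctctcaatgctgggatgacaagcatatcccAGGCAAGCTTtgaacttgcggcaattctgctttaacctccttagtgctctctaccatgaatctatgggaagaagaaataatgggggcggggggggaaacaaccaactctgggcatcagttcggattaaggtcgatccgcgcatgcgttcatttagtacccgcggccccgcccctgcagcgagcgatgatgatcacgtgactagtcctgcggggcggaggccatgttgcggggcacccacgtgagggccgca
Mdm2 promoter, chr10:117546614-117546913, reverse strand: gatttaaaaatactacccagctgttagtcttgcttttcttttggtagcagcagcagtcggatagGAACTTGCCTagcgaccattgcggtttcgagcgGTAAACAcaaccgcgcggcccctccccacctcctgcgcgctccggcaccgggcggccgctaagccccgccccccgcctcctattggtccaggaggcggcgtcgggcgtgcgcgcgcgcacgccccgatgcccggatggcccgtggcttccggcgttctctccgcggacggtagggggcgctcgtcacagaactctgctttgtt
Bcl2l11 promoter, chr2:127967708-127968007, forward strand: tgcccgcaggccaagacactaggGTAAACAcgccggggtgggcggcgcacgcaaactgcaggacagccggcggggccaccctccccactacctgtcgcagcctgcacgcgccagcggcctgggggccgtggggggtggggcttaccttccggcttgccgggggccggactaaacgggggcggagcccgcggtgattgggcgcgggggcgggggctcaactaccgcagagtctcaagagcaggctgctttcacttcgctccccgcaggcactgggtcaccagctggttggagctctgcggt
A *Cdkn1a* window that is not shown, at a start further downstream (chr17:29312493-29312792), held 0 half-sites. The *Cdkn1a* window shown held 2 half-sites, beginning at positions -73 and -51 relative to the start, with 12 bases between them. Such a pair, with at most 13 bases between, occurred in 24 of 32851 mouse promoter windows, or 0.07%. The stretch tgacatgttc, directly after the half-site at -51, misses the searched pattern at its first base and so is not marked. A single half-site stood at -201 in *Bax*, at -186 in *Mdm2* and at -75 in a *Trp53* window that is not shown, and 8.36% of all windows held one. TGTTTAC, here on the opposite strand and so read as GTAAACA, began at -227 in *Bcl2l11* and at -153 in *Mdm2*, and also at -167 in a *Bbc3* window. A *Bcl2l11* window that is not shown held 0 matches to it. TGTTTAC was found in 3.65% of all windows, and no match overlapped a half-site. The promoter of *Mdm2* known to answer to p53 lies inside its first intron, outside this window. A match is a run of letters and does not show binding.

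The total of expected counts per library was 12584726 to 15907505 in controls and 14069373 to 15572196 in cKO. A floor of 3 counts, which covers counting error only, was worth 0.189 to 0.238 CPM, counts scaled to the same library total. *Mgat2* was at 31.8 to 69.8 CPM in controls and 16.0 to 37.6 CPM in cKO, with a log2 fold change of -1.05 (SE 0.36, edgeR adjusted p = 0.47, DESeq2 adjusted p = 0.024). Markers of spermatogonia and spermatocytes were present in every library, so germ cells were part of each preparation. The 10 of spermatogonia summed to 956 to 1136 TPM in controls and 1093 to 1363 TPM in cKO. The 10 of leptotene and zygotene spermatocytes summed to 1673 to 2415 TPM in controls and 1527 to 1974 TPM in cKO. The 12 Sertoli cell markers were present too, all 12 reaching 1 TPM, with *Clu* the highest. They summed to 9488 to 11900 TPM in controls and 10050 to 12190 TPM in cKO, above every germ cell list in each library. Such sums do not give shares of cells. The summed markers of Leydig cells (35.9 to 89.7 TPM), macrophages (25.9 to 52.95 TPM) and endothelium (group medians 29.3 and 27.4 TPM) were low, those of peritubular myoid cells were at 632 to 1069 TPM, and no marker was at 0 in every library. The 9 genes are active in somatic cells as well, so the values below are of mixed preparations in which fewer cells of a type and less RNA per cell cannot be told apart. The 10 markers of pachytene spermatocytes and later stages summed to 662 to 2348 TPM in controls and 309 to 807 TPM in cKO. The part of these cell markers in the results was not tested.

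Replicate 1 of each genotype stood apart from the other libraries. The summed level of 10 immediate-early genes, which cells switch on within minutes of a stimulus and which include *Fos*, was 823 TPM in control replicate 1 and 851 TPM in cKO replicate 1. It was 2555 to 2813 TPM in the other controls and 2581 to 3147 TPM in the other cKO libraries. The pachytene markers were highest in replicate 1 of both genotypes, at 2348 and 807 TPM, against 662 to 1066 TPM and 309 to 366 TPM in the rest. The labels do not say what a replicate number stands for. Values without replicate 1 are therefore given for each of the 9 genes, and for each pathway list as its calls.

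None of the 9 genes was called between cKO and control germ cells. At 15 days the transcripts of *Trp53* and *Cdkn1a* differed by 0.03 and 0.07 on the log2 scale, those of *Bax*, *Pmaip1* and *Bbc3* by 0.17, 0.17 and 0.39, and those of *Mdm2*, *Bcl2* and *Bcl2l1* by -0.12, -0.16 and -0.25. In edgeR's quasi-likelihood test over all 20187 genes, 0 of 9 passed an adjusted p of 0.05, and 0 of 9 had an unadjusted p under 0.05, where 8.90% of all genes did. DESeq2 and limma-voom also called 0 of 9, with 0 at an unadjusted p under 0.05. The background was low too, since edgeR called 8 of all genes, or 0.0396%, and DESeq2 called 304, or 1.51%. The log2 fold change was above 0 for 6 of the 9 and below 0 for 3, with a median of 0.07 against 0.0069 over all genes tested. On the CPM scale, the genotypes overlapped for all 9, where 5.50% of all genes did not overlap. With replicates 2 to 4 alone, edgeR called 855 genes, or 4.24%, and again 0 of the 9, with *Bax* and *Bbc3*, both above 0, at an unadjusted p under 0.05, where 13.9% of all genes were. Except in the fit to replicates 2 to 4 alone, these p-values measure the spread among 4 mice per genotype.

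**Figure D1:**
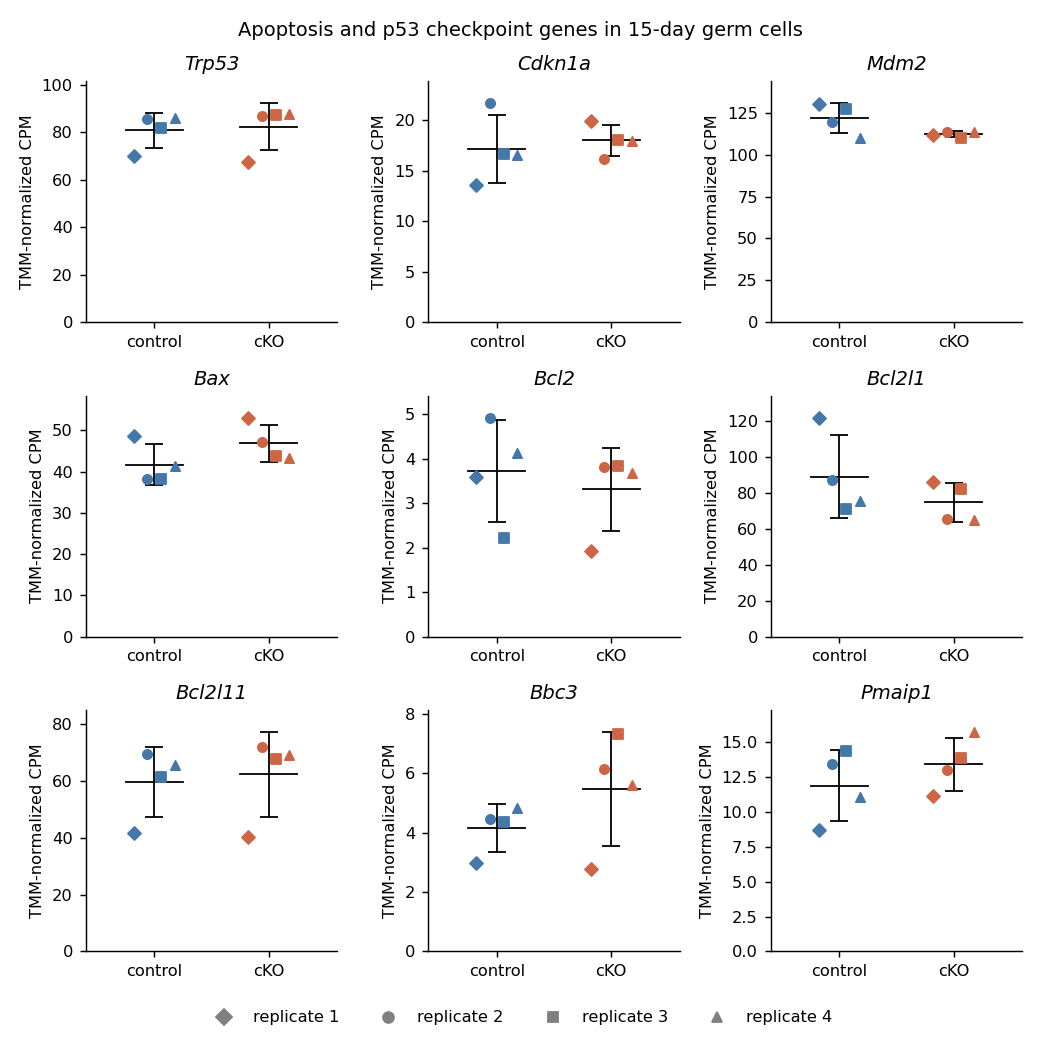
TMM-normalized CPM of the 9 genes in each library, control in blue and cKO in orange, with the replicate number as the marker shape, a line at the mean and bars of 1 SD (n = 4 per genotype). The genotypes overlap in every panel, and the diamonds of replicate 1 lie lowest in both genotypes for *Trp53*, *Bcl2l11*, *Bbc3* and *Pmaip1*.

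*Trp53* encodes p53 itself and lies on chromosome 11 (GRCm39, 69469669 to 69482701, forward strand). Among controls, given here and below in the order of replicates 1 to 4, it was at 69.9, 85.8, 81.6 and 85.8 CPM. In cKO replicates 1 to 4 it was 67.3, 86.7, 87.5 and 87.8 CPM. The lowest library of each genotype was replicate 1, and the remaining 6 libraries lay close together across genotypes. The means were 80.8 ± 7.50 and 82.3 ± 10.0 CPM (SD, n = 4 each), a log2 fold change of 0.03 (SE 0.10, edgeR adjusted p = 0.966). Its 95% interval ran from 0.872-fold to 1.191-fold, the narrowest after that of *Mdm2*. Without replicate 1 the log2 fold change was 0.05. Its exons overlap *Wrap53* on the opposite strand by 263 bases, 3.56% of the exonic length of *Trp53*, and in libraries without strand the reads of this stretch cannot be told apart. *Wrap53* itself had 303 to 361 counts per library against 1014 to 1340 for *Trp53*.

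*Mdm2* encodes the ubiquitin ligase that restrains p53 (chromosome 10, 117524780 to 117546730, reverse strand). It was the gene of the 9 with the most counts, 1411 to 2017 per library. The 4 controls were at 130.4, 119.6, 127.5 and 110.2 CPM. The 4 cKO libraries were at 112.1, 113.9, 110.2 and 113.9 CPM. All cKO libraries lay at the lower end of the control range, and control replicate 4 lay among them. The means were 121.9 ± 9.06 and 112.5 ± 1.76 CPM, a log2 fold change of -0.12 (SE 0.07, edgeR adjusted p = 0.654). The 95% interval ran from 0.830-fold to 1.026-fold, and without replicate 1 the log2 fold change was -0.08.

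*Cdkn1a* encodes p21, the cyclin-dependent kinase inhibitor that carries out the p53 arrest (chromosome 17, 29309936 to 29319701, forward strand). Of its promoter windows, the upstream one, shown above, holds the pair of half-sites. Which start these cells use was not tested. In controls *Cdkn1a* was at 13.6, 21.7, 16.6 and 16.6 CPM. In cKO it was at 20.0, 16.2, 18.01 and 17.9 CPM. The control libraries held both the lowest and the highest value. The means were 17.1 ± 3.38 and 18.03 ± 1.55 CPM, a log2 fold change of 0.07 (SE 0.15, edgeR adjusted p = 0.925), with a 95% interval from 0.836-fold to 1.325-fold. Without replicate 1 the estimate turned to -0.08, and without control replicate 1 alone it was -0.02. The antisense transcript *Dino*, which overlaps it by 504 bases, had 0 to 7 counts per library.

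*Bax* encodes the protein that opens the outer mitochondrial membrane (chromosome 7, 45111015 to 45116325, reverse strand). Controls, by replicate number, were at 48.7, 38.3, 38.3 and 41.4 CPM. The cKO libraries, likewise, were at 53.1, 47.2, 43.8 and 43.3 CPM. Control replicate 1 was above 3 of the cKO libraries, while the other controls were below all of them. The means were 41.7 ± 4.93 and 46.8 ± 4.52 CPM, a log2 fold change of 0.17 (SE 0.11, edgeR adjusted p = 0.667). The 95% interval ran from 0.955-fold to 1.323-fold. Without replicate 1 the log2 fold change was 0.19 (SE 0.09, edgeR adjusted p = 0.358). Leaving out 1 library gave 0.10 (without cKO replicate 1) to 0.25 (without control replicate 1). The gene model *Gm45808*, which shares 192 bases with *Bax* on the same strand, was at 15 counts in cKO replicate 1 and at 0 or 1 elsewhere.

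The survival gene *Bcl2l1* lies on chromosome 2 (152622582 to 152673655, reverse strand). Control replicates 1 to 4 were at 121.8, 87.3, 71.0 and 75.6 CPM. The cKO replicates were at 85.8, 65.6, 82.1 and 64.9 CPM. Control replicate 1 was the highest library by far, and in the remaining libraries the genotypes were interleaved. The means were 88.9 ± 23.0 and 74.6 ± 10.9 CPM, a log2 fold change of -0.25 (SE 0.17, edgeR adjusted p = 0.690). Replicate 1 was the highest library of both genotypes, and without it the log2 fold change was -0.14. Without control replicate 1 alone it was -0.06, and without cKO replicate 1 alone it was -0.33.

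*Bcl2*, the founding survival gene of the family (chromosome 1, 106465908 to 106642060, reverse strand), was the least abundant of the 9, with only 29 to 76 counts per library. The 4 controls were at 3.598, 4.93, 2.21 and 4.14 CPM. The 4 cKO libraries were at 1.93, 3.82, 3.84 and 3.69 CPM. The lowest library was cKO replicate 1 and the next control replicate 3, and the others lay together. This gave a log2 fold change of -0.16 (SE 0.31, edgeR adjusted p = 0.913), and at this depth the 95% interval, 0.560-fold to 1.422-fold, was wide. Without replicate 1 the estimate turned to 0.01. *Bcl2* reached 1 TPM only in control replicates 2 and 4, at 1.27 and 1.07 TPM, against 0.42 to 0.98 TPM in cKO. It thus passed the filter through controls alone.

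Among the BH3-only genes, *Bcl2l11* encodes BIM (chromosome 2, 127967958 to 128004476, forward strand). In controls it was at 41.6, 69.5, 61.6 and 65.6 CPM. In cKO it was at 40.2, 72.0, 68.0 and 69.4 CPM. Replicate 1 was the lowest of both genotypes, and the other cKO libraries lay near or just above the highest controls. The means were 59.6 ± 12.4 and 62.4 ± 14.9 CPM, a log2 fold change of 0.07 (SE 0.21, edgeR adjusted p = 0.959). Without replicate 1 it was 0.09 with a smaller SE of 0.08.

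*Bbc3* encodes PUMA, the BH3-only protein most tied to p53-dependent death (chromosome 7, 16042318 to 16052130, forward strand). Controls, by replicate number, were at 2.99, 4.47, 4.36 and 4.84 CPM. The cKO libraries, likewise, were at 2.79, 6.15, 7.33 and 5.60 CPM. The lowest of all was cKO replicate 1, while the other cKO libraries were above all controls. The log2 fold change, the largest of the 9 in size, was 0.39 (SE 0.29, edgeR adjusted p = 0.709), from as few as 42 counts in a library. Its 95% interval ran from 0.845-fold to 2.036-fold. Without replicate 1 the log2 fold change was 0.48 (SE 0.23, edgeR adjusted p = 0.327), and without cKO replicate 1 alone it was 0.61 (edgeR adjusted p = 0.300), while without cKO replicate 3 alone it was 0.22 and without control replicate 1 alone 0.26.

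*Pmaip1* encodes NOXA, which neutralises MCL1 (chromosome 18, 66591604 to 66598636, forward strand). Control replicates 1 to 4 were at 8.69, 13.4, 14.4 and 11.1 CPM. The cKO replicates were at 11.2, 13.01, 13.9 and 15.7 CPM. The lowest library was control replicate 1, the highest cKO replicate 4, and the middle values were mixed. These gave a log2 fold change of 0.17 (SE 0.18, edgeR adjusted p = 0.795), and 0.13 without replicate 1. Leaving out 1 library gave 0.0509 (without control replicate 1) to 0.28 (without control replicate 3).

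**Figure D2:**
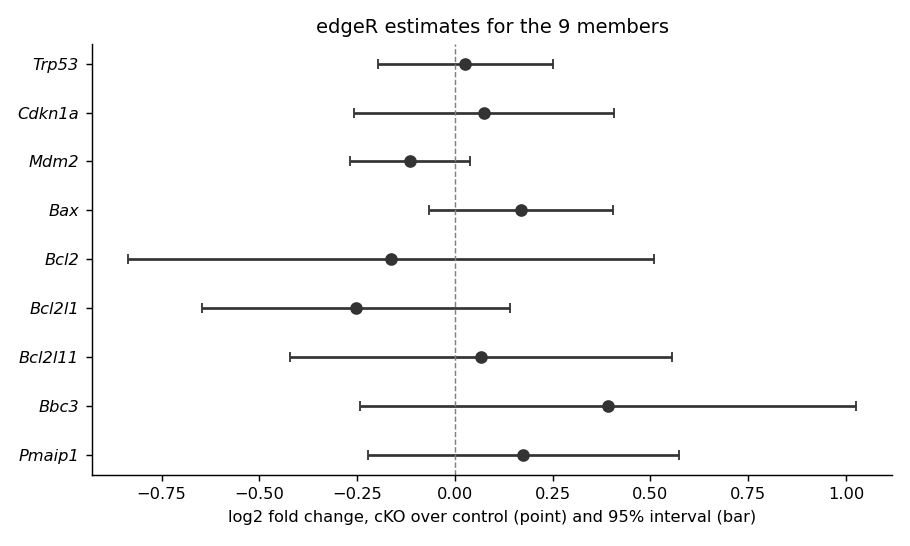
The log2 fold change of cKO over control for the 9 genes (points), with 95% intervals from edgeR's quasi-likelihood fit (bars). Every interval crosses 0, and those of *Bcl2* and *Bbc3*, the genes with the fewest counts, are the widest.

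Compared per length on the TPM scale, the levels of the 9 genes spanned a wide range. *Bax* was the most abundant at a mean of 114.4 TPM over the 8 libraries, followed by *Mdm2* at 91.2, *Trp53* at 78.7, *Bcl2l1* at 69.5 and *Bcl2l11* at 39.0 TPM. *Cdkn1a* was at 17.2, *Pmaip1* at 8.86, *Bbc3* at 6.995 and *Bcl2* at 0.88 TPM. Between neighbours in this order, the ranges over libraries did not overlap for *Bcl2l1* over *Bcl2l11*, *Cdkn1a* over *Pmaip1* and *Bbc3* over *Bcl2*. Among *Bax*, *Mdm2*, *Trp53* and *Bcl2l1*, each gene overlapped in range with its neighbour, although *Bax* was above *Mdm2* in 7 of 8 libraries. The lowest value of *Bax*, 99.09 TPM, was above the highest of *Trp53* (85.94 TPM) and of *Bcl2l1* (96.53 TPM). Among the survival genes, *Bcl2l1* was far above *Bcl2* in every library. *Mcl1*, another survival gene of the family, was higher than *Bcl2l1* in mean level, at 116 TPM in controls and 118 TPM in cKO.

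*Mdm2* was the gene whose reading depended on the unit, a point noticed after its values were seen. On the TPM scale control replicates 1 to 4 were at 104.6, 97.8, 102.2 and 95.2 TPM, and cKO replicates 1 to 4 at 75.3, 82.6, 82.2 and 89.3 TPM. Every cKO value was below every control value, for 1 of the 9 genes, where 5.00% of all genes tested did not overlap on this scale. The limma-trend fit on log2(TPM + 1) gave -0.28 (SE 0.08, unadjusted p = 0.0051, adjusted p = 0.358), so it was not called. TPM divides each gene's reads by its estimated mean transcript length, so this length was recovered from the ratio of expected count to TPM, scaled on 123 genes with a single annotated transcript. For *Mdm2* it was 2084, 2137, 2126 and 2055 bases in controls and 2489, 2361, 2267 and 2226 bases in cKO, longer in all cKO libraries (2101 ± 38 against 2336 ± 117 bases, SD, n = 4 each). The length of 302 of 12539 genes, or 2.41%, did not overlap between genotypes, and a ratio at least as far from 1 as that of *Mdm2* was seen in 11.4% of these genes. The other 8 overlapped in length. So in cKO the reads of *Mdm2* were assigned to longer transcripts on average, while their number was within the control range or near it.

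**Figure D3:**
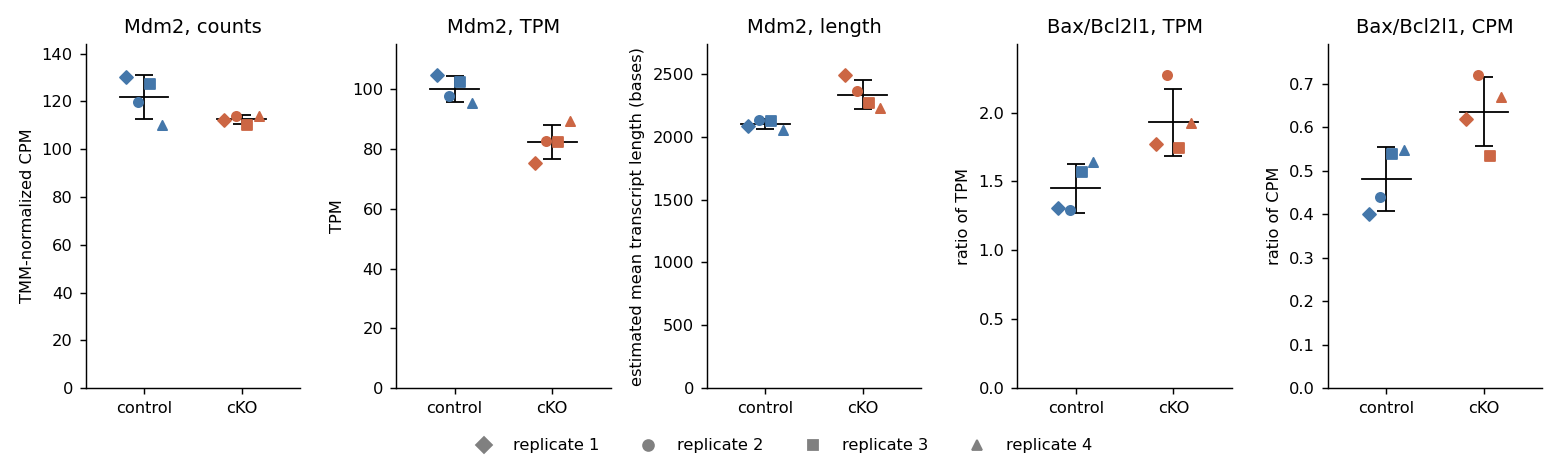
*Mdm2* as TMM-normalized CPM, as TPM and as estimated mean transcript length in bases, and the ratio of *Bax* to *Bcl2l1* in TPM and in CPM, for each library with the mean and 1 SD (n = 4 per genotype). *Mdm2* overlaps between genotypes in CPM but not in TPM or length, and the ratio overlaps in CPM but not in TPM.

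The balance of effector to survival transcripts can be read from the ratio of *Bax* to *Bcl2l1*, which was chosen after the values were seen and is given without a test. In TPM the 4 controls, by replicate number, gave 1.304, 1.294, 1.57 and 1.639, and the 4 cKO libraries 1.773, 2.271, 1.742 and 1.927. The genotypes did not overlap on this scale (1.45 ± 0.179 against 1.93 ± 0.243). From CPM the ratio was 0.481 ± 0.073 and 0.635 ± 0.079, and cKO replicate 3, at 0.533, fell below 2 controls. Of the 36 pairs among the 9 genes, 2 did not overlap in TPM, *Bax* with *Bcl2l1* and *Bax* with *Mdm2*, and only the latter in CPM. Both hold *Bax*, whose ratio to any other gene failed to overlap for 10.9% of genes in TPM and 11.2% in CPM. For *Bcl2l1* these shares were 4.53% and 4.39%.

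The wider pathway was read from lists of genes, in which members of the 9 are included. In the BCL2 family, 18 of 22 genes were tested and edgeR and DESeq2 called 0 of them. *Bok*, a BAX relative, was at 17.95 ± 1.38 CPM in controls and 23.0 ± 3.11 CPM in cKO, a log2 fold change of 0.36 (edgeR unadjusted p = 0.0157, adjusted p = 0.447). *Bid*, the BH3-only link from death receptors to mitochondria, was at 22.3 ± 1.68 and 27.0 ± 1.98 CPM, with 0.28 (edgeR adjusted p = 0.478). In CPM neither *Bok* nor *Bid* overlapped between genotypes, where 5.50% of all genes did not. In TPM both overlapped. *Bok* was at 25.69 TPM in cKO replicate 1 against 36.75 TPM in control replicate 4. *Bid* was at 21.04 TPM in cKO replicate 3 against 21.22 TPM in control replicate 4. *Bcl2l12* was at 26.1 ± 10.5 and 17.1 ± 2.37 CPM, with -0.61 (edgeR adjusted p = 0.506). These were the 3 genes of the family at an unadjusted p under 0.05, 2 above 0 and 1 below, where 2.62% of all genes were higher and 6.28% lower at that level. *Mcl1* stood at 0.03 and the list's median at 0.05. Without replicate 1, where 4.24% of all genes were called, edgeR called 1 gene of the list, *Bok*.

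Of the p53 family and its regulators, 14 of 15 were tested, edgeR and DESeq2 called 0, and 0 had an unadjusted p under 0.05. The most abundant were the deubiquitinase gene *Usp7*, which stabilises MDM2 and p53, at -0.0044, and the ubiquitin ligase gene *Cop1*, at -0.04. The second brake on p53, *Mdm4*, singled out after its values were seen, was at 243 ± 20.6 CPM in controls and 215 ± 46.2 CPM in cKO, with -0.18 (edgeR adjusted p = 0.744). The list's median was -0.0036, and without replicate 1 edgeR again called 0.

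All 34 p53 target genes were tested, and edgeR and DESeq2 again called 0. At an unadjusted p under 0.05, 2 were above 0 and 1 below, where 2.62% of all genes were higher and 6.28% lower. *Ccng1*, the cyclin G1 gene and among the most regular targets of p53, was at 47.1, 42.9, 42.2 and 40.1 CPM in control replicates 1 to 4 and at 59.3, 52.8, 50.3 and 53.8 CPM in cKO replicates 1 to 4. The genotypes did not overlap, where 5.50% of all genes did not. The log2 fold change was 0.33 (SE 0.09, edgeR unadjusted p = 0.0032, adjusted p = 0.327, DESeq2 adjusted p = 0.064). *Xpc*, for the damage sensor of nucleotide excision repair, was at 33.9 ± 2.92 and 40.8 ± 3.64 CPM, with 0.27 (edgeR adjusted p = 0.478). *Perp*, a gene of cell junctions and of p53-dependent death, was at 2.79 ± 0.580 and 1.74 ± 0.452 CPM, with -0.68 (edgeR adjusted p = 0.540). *Sesn2*, the target with the highest mean TPM, was at 0.02. Over the list, 24 genes were above 0 and 10 below, with a median of 0.07, against 10364 above and 9817 below over all genes. Without replicate 1, edgeR called 1 target, *Ccng1*, where 4.24% of all genes were called.

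In the DNA damage and meiotic checkpoint list, which holds the kinases and clamps that signal breaks in spermatocytes, all 18 genes were tested. EdgeR called 0 of them, while DESeq2, which called 1.51% of all genes, called 1. That gene was *Mdc1*, whose product spreads the damage signal along chromatin and over the silenced sex chromosomes at pachytene. It was at 434.9, 402.3, 438.7 and 349.2 CPM in control replicates 1 to 4 and at 270.7, 314.6, 330.8 and 322.8 CPM in cKO replicates 1 to 4. The groups did not overlap, and the log2 fold change was -0.39 (SE 0.09, edgeR unadjusted p = 0.00095, adjusted p = 0.235, DESeq2 adjusted p = 0.0098). *Rad9b*, a testis-rich clamp subunit gene, was at 45.8 ± 5.23 and 36.7 ± 1.97 CPM, with -0.32 (edgeR adjusted p = 0.409). *H2ax*, for the histone phosphorylated at breaks, was at 136.0 ± 12.1 and 112.2 ± 10.9 CPM, with -0.28 (edgeR adjusted p = 0.418). *Hormad1*, the most abundant of the list, was at -0.07. At an unadjusted p under 0.05, 3 genes (*Mdc1*, *Rad9b* and *H2ax*) were lower and 0 were higher. Of all genes, 6.28% were lower and 2.62% higher at that level. In the list, 4 of the 18 did not overlap in CPM, against 5.50% of all genes, the fourth being *Brca1*, which was above 0 at 0.15. Without replicate 1, edgeR called 2, *Mdc1* and *Rad9b*, where 4.24% of all genes were called. Of the 10 pachytene markers, 9 were below 0 and 1 above, with a median of -1.39. The part of that difference in these values was not tested.

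Of the 22 genes for caspases, the apoptosome and its inhibitors, edgeR called 0 and DESeq2 called 1. The latter was *Cyct*, for the testis form of cytochrome c that spermatocytes begin to make, with a log2 fold change of -1.07 (SE 0.33, edgeR adjusted p = 0.426, DESeq2 adjusted p = 0.035). Its level was 37.4, 20.7, 23.1 and 11.5 CPM in controls and 13.9, 8.02, 11.4 and 10.8 CPM in cKO, so the highest control was replicate 1, the library with the highest pachytene markers. The somatic form *Cycs* was at 266.4 ± 29.9 and 311.4 ± 12.2 CPM, with 0.23 (edgeR adjusted p = 0.461), and reads of these paralogs may have been divided between them. *Aifm1*, for a mitochondrial factor that can enter the nucleus in death, was at 44.8 ± 1.17 and 52.2 ± 2.53 CPM, with 0.22 (edgeR adjusted p = 0.453). *Diablo*, whose product lifts the block on caspases and which was the most abundant of the list, was at -0.36 (edgeR adjusted p = 0.563). Over the list, 3 genes (*Cycs*, *Aifm1* and, at 0.19, the caspase inhibitor gene *Xiap*) were above 0 and *Cyct* below at an unadjusted p under 0.05, where 2.62% of all genes were higher and 6.28% lower. DESeq2 called 1.51% of all genes. Without replicate 1, edgeR called 0 of the list, and *Cyct* was at -0.88 (SE 0.26, edgeR adjusted p = 0.118).

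In the death receptor pathway, 12 of 14 genes were tested and edgeR and DESeq2 called 0. The adaptor gene *Traf2* was at 34.5 ± 3.84 and 27.6 ± 3.47 CPM, with a log2 fold change of -0.32 (edgeR adjusted p = 0.467). The adaptor gene *Fadd*, which recruits caspase 8, was at 18.5 ± 1.63 and 22.7 ± 3.48 CPM, with 0.30 (edgeR adjusted p = 0.561). The most abundant genes were the receptor gene *Tnfrsf1a*, at 0.08, and the inhibitor gene *Cflar*, at -0.04. Without replicate 1, edgeR again called 0. The ligand genes *Fasl* and *Tnfsf10* were below 1 TPM in every library and were not tested.

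Among the 7 cyclin-dependent kinase inhibitors, edgeR called 0 and DESeq2, which called 1.51% of all genes, called 1. This gene was *Cdkn1c*, which encodes p57. It was at 6.11, 6.42, 6.76 and 7.81 CPM in control replicates 1 to 4 and at 9.96, 9.58, 9.63 and 11.3 CPM in cKO replicates 1 to 4. The log2 fold change was 0.58 (SE 0.16, edgeR adjusted p = 0.340, DESeq2 adjusted p = 0.046). In CPM the genotypes did not overlap, where 5.50% of all genes did not. In TPM they overlapped, with 11.18 TPM in cKO replicate 1 and 13.3 TPM in control replicate 2. The most abundant were *Cdkn2d*, at -0.11, and *Cdkn2a*, whose ARF product blocks MDM2, at 0.22 (edgeR adjusted p = 0.780). *Cdkn2c*, which encodes p18 and was singled out after its values were seen, was at 84.3, 31.4, 39.4 and 28.1 CPM in controls and at 34.8, 17.7, 20.9 and 19.7 CPM in cKO. Replicate 1 was the highest of both genotypes, and the log2 fold change was -0.98 (SE 0.41, edgeR adjusted p = 0.562). Without replicate 1 it was -0.77 (SE 0.12, edgeR adjusted p = 3.764e-05), while *Cdkn1c* was at 0.54 (edgeR adjusted p = 0.111). *Cdkn2c* was the only gene of the list then called, where 4.24% of all genes were.

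**Figure D4:**
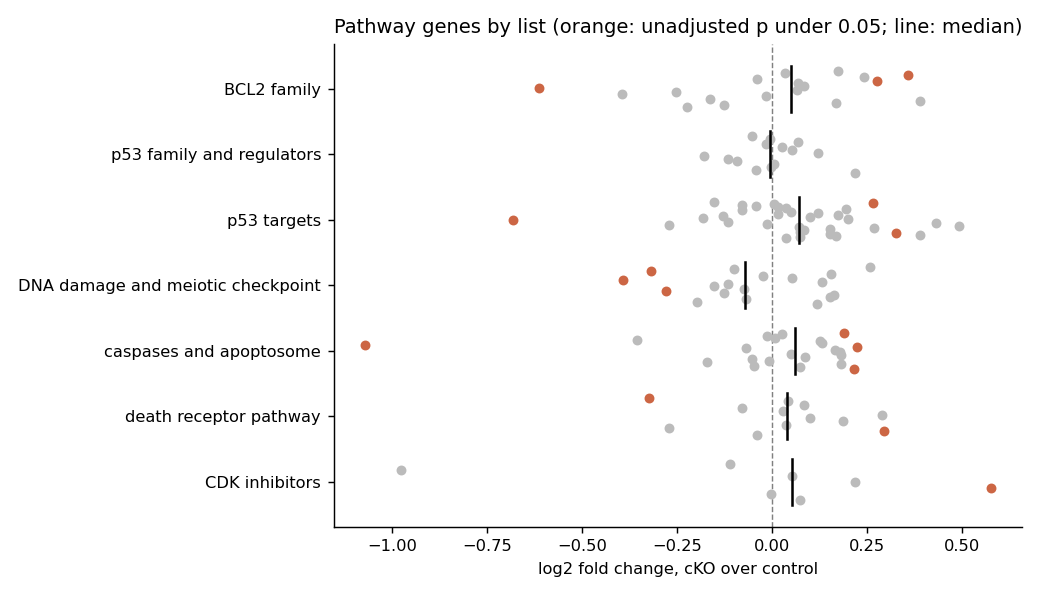
The log2 fold change of cKO over control for every tested gene of the 7 pathway lists, 1 point per gene, with a black line at each list's median and orange points for an unadjusted edgeR p under 0.05. The medians lie between -0.07 (DNA damage and meiotic checkpoint) and 0.07 (p53 targets), and no point passed the adjusted threshold in edgeR.

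For 6 of the 9 genes, replicate 1 lay at the same end of both genotypes. It was the lowest of both genotypes for 4 of the 9, *Trp53*, *Bcl2l11*, *Bbc3* and *Pmaip1*, where 19.4% of all genes showed that order. It was the highest of both genotypes for 2, *Bax* and *Bcl2l1*, where 21.1% did. For *Cdkn1a*, *Mdm2* and *Bcl2* its place differed between the genotypes. For *Bcl2l11* the 2 libraries were at 41.6 and 40.2 CPM, against 61.6 to 72.0 CPM in the other 6. The immediate-early genes were low and the pachytene markers high in the same 2 libraries, and their part in these values was not tested.

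**Figure D5:**
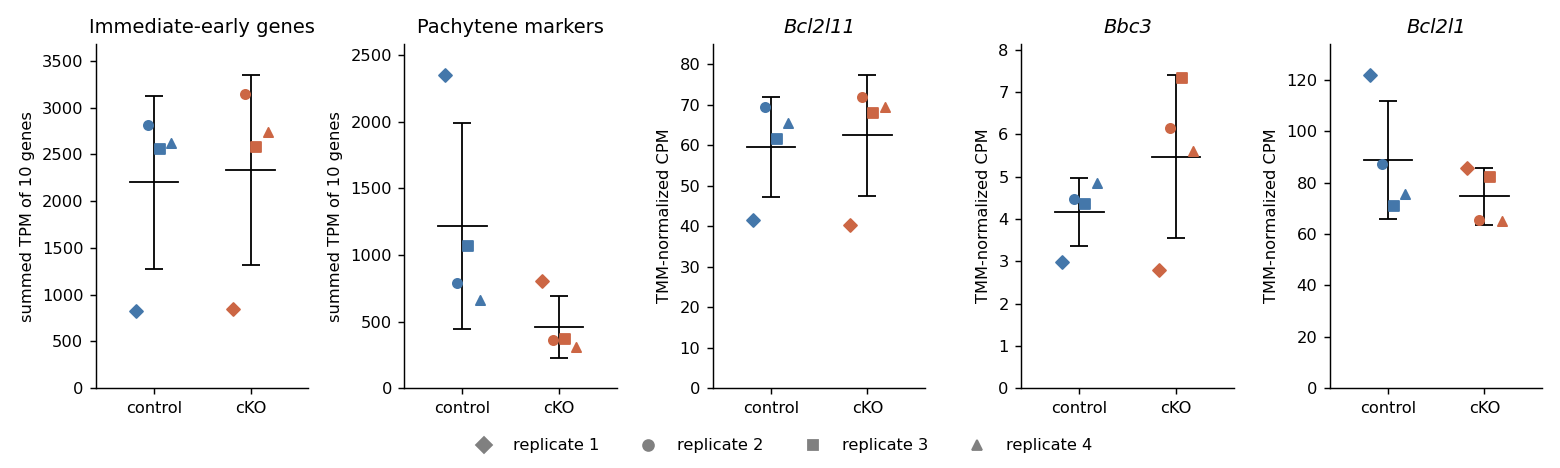
Summed TPM of 10 immediate-early genes and of 10 pachytene markers, and TMM-normalized CPM of *Bcl2l11*, *Bbc3* and *Bcl2l1*, per library with the mean and 1 SD (n = 4 per genotype) and the replicate number as the marker shape. Replicate 1 (diamonds) is the lowest library of both genotypes for the immediate-early genes (823 and 851 TPM), *Bcl2l11* and *Bbc3*, and the highest for the pachytene markers (2348 and 807 TPM) and *Bcl2l1*.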

How the data were processed

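Germ cells of 8 mice, 4 per genotype, were profiled by paired-end RNA-seq. The authors aligned the reads to mm39 with STAR (2.7.9a), and they deposited RSEM (1.3.3) expected counts per gene (Ensembl release 105). RSEM divides reads that match several transcripts or paralogs between them. The authors also deposited TPM values, which divide by estimated transcript length, so a shift between isoforms moves TPM without a change in counts. Of the expected counts above 0, 15.2% were not whole, and counts were rounded before testing. Genes with at least 1 TPM in at least 1 sample were kept, as the study's methods state. The main test was edgeR (4.0.16), quasi-likelihood with robust estimation, TMM scaling and genotype as the only term, with Benjamini-Hochberg adjustment over 20187 genes and a threshold of 0.05. SE is the log2 fold change divided by the root of F. Alternatives used DESeq2 (1.42.0), limma (3.58.1) with voom or on log2(TPM + 1) and log2(TPM + 0.1), other scalings and filters, a replicate block, and subsets of the libraries. The scripts were tested on simulated counts. Positions are from GENCODE M39 on GRCm39. Depth, 12584726 to 15907505 expected counts, limits the genes under about 100 counts most.

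The genes and lists were chosen with earlier results of these data known. In each list the text names every gene called, or up to 3 with the smallest unadjusted p under 0.05, the 2 highest by mean TPM, and the genes said to be chosen after their values were seen. Of the cell markers, only the highest of a list is named. No set test was run. No promoter sequence was used for *Pmaip1*. A result on 1 gene of the caspases list is not reported here.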

Additional observations from a re-analysis of the deposited data

Results flagged for a closer look

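For each of the 9 genes and each genotype, the gap between an extreme library and its nearest neighbour was compared with the range of the 4 libraries, and 3 of the 18 groups passed Dixon's 95% critical value, a level that chance passes in about 1 of 20 groups. All were the low value of cKO replicate 1. *Trp53* was at 67.3 CPM in this library, with a gap of 0.947 of the range. *Bcl2* was at 1.93 CPM, with 0.921. *Bcl2l11* was at 40.2 CPM, with 0.873. Control replicate 1 was also the lowest control for *Trp53* and *Bcl2l11* but not for *Bcl2*. In the same library the summed immediate-early genes were at 851 TPM, against 2581 to 3147 TPM in the other cKO libraries, and their part in these 3 values was not tested.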

How the results depend on the processing

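All 22 alternatives called 0 of the 9 genes. The lowest adjusted p of each gene over the alternatives ranged from 0.227 (*Bcl2l1*, DESeq2 with the replicate block) to 0.811 (*Bcl2*). Limma-trend on either TPM scale put 1 of the 9, *Mdm2*, at an unadjusted p under 0.05, and the fit without replicate 1 put 2 there, *Bax* and *Bbc3*. Leaving out control replicate 1 (*Bax*), control replicate 4 (*Mdm2*) or cKO replicate 1 (*Bbc3*) put 1 there. Direction turned for 4 genes that were never called. *Trp53* was at -0.0065 and -0.0066 in limma-trend on log2(TPM + 1) and log2(TPM + 0.1) and ranged from -0.0358 to 0.112 when 1 library was left out. With replicates 2 to 4 only, *Cdkn1a* was at -0.0771 and *Bcl2* at 0.0132, and leaving out 1 library gave -0.0214 to 0.21 for *Cdkn1a*, -0.35 to 0.0245 for *Bcl2* and -0.0718 to 0.23 for *Bcl2l11*. *Mdm2*, *Bax*, *Bcl2l1*, *Bbc3* and *Pmaip1* kept their direction in all 22. The median of the 9 ranged from -0.04 (without control replicate 1) to 0.13 (without control replicate 2).

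Counts over all genes moved far more. EdgeR called 8 genes, 18 with upper-quartile factors, 17 with library totals only, 35 with no expression filter, and 0 without robust estimation, under filterByExpr, in limma-voom and in limma-trend on both TPM scales. DESeq2 called 304, or 258 without independent filtering, replicates 2 to 4 gave 855, and leaving out 1 library gave 0 to 32. In the lists, all at 0 in edgeR, both DESeq2 fits called 1 gene of DNA damage and 1 of caspases, and DESeq2 with filtering 1 CDK inhibitor. Replicates 2 to 4 called 1 gene of the BCL2 family (*Bok*), 1 p53 target (*Ccng1*), 2 of DNA damage (*Mdc1* and *Rad9b*) and 1 CDK inhibitor (*Cdkn2c*). The cause of these moves was not tested. No scaling moved the median of all genes by over 0.1.

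Same-numbered replicates deviated together with correlations of 0.697, 0.296, 0.0868 and 0.325. Because 1 was under 0.1 and the labels tie no numbers, they were not taken as pairs. With the replicate block edgeR called 1464 genes and DESeq2 1223. Both called 1 gene of the BCL2 family (*Bcl2l12*), 1 p53 target (*Ccng1*) and 3 of DNA damage (*Mdc1*, *Rad9b* and *H2ax*), and both put 1 of the 9, *Bcl2l1*, at an unadjusted p under 0.05. The caspases list had 3 called by edgeR (*Cyct*, *Diablo* and *Cycs*) and 2 by DESeq2, the death receptor list 1 by edgeR (*Traf2*), and the CDK inhibitors 2 by edgeR and 1 by DESeq2.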

Other observations

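The genes whose profile over the 8 libraries was most like that of *Trp53*, by Pearson's r of log2 CPM, were *Ccrl2* (0.996), *Ubr2* (0.993) and *Phlda1* (0.992). Over the 6 libraries without replicate 1, r was 0.917, 0.887 and 0.856. For *Cdkn1a* they were *Pex11a* (0.965), *H4c4* (0.962) and *Cyb5r3* (0.960), with 0.983, 0.916 and 0.939 without replicate 1. These are descriptions over libraries that share preparation and depth, picked as the highest of all genes.

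The estimated mean transcript length of *Bbc3* varied 2.08-fold among libraries, from 805 bases in control replicate 4 to 1676 bases in cKO replicate 1, in both genotypes alike (1330 ± 422 and 1308 ± 335 bases, SD, n = 4 each). Its TPM therefore spread more than its CPM, 2.78 to 11.2 TPM against 2.79 to 7.33 CPM. *Bcl2l11* varied 1.57-fold in the same measure, and *Cdkn1a* 1.03-fold. The pseudogene *Trp53-ps* was at 0 counts in all 8 libraries.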
